A study of Homo sapiens with 4 samples.

Results

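Distal to distal loops were chromatin contacts whose anchors both lay away from the start of any protein-coding transcript. They were taken from 2 loop lists made by HiChIP, an assay that ligates neighbouring chromatin ends and then enriches the junctions bound by 1 protein, in the human lymphoblastoid cell line HG00731, a line of B cells immortalised with Epstein-Barr virus. In one experiment an antibody to SMC1, a subunit of the cohesin ring, was used on cells fixed with formaldehyde and then EGS, a longer crosslinker. In the other, an antibody to CTCF, a zinc finger protein that binds DNA, was used on cells fixed with formaldehyde alone. Each experiment had 2 biological replicates, which the authors pooled before loops were listed, so no loop had a value per replicate and no difference below has a replicate error or a test. A loop was kept if it lay on chromosomes 1 to 22, if its anchor starts were over 30 kb and under 500 kb apart, and if no protein-coding transcript of GENCODE 44 started within 1 kb of either 5 kb anchor (hg38). This rule kept 54486 of 108499 loops: 13064 of 28012 in the SMC1-labelled list and 41422 of 80487 in the CTCF-labelled list. They carried 325021 and 1282280 read pairs, or 41.2% and 48.1% of the read pairs of all loops in their lists.

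Cohesin is thought to extrude chromatin into growing loops and to stall where it meets CTCF bound to a motif that points into the loop. A pair of such sites facing each other, called convergent, marks the ends of many loops that have no promoter at their base. Loops of this kind can frame a stretch of chromatin with the genes in it, while enhancers can also meet each other at sites that bind cohesin without CTCF.

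The loop lists are named here by their labels. In the SMC1-labelled list, all 13064 distal to distal loops had a CTCF peak at 1 anchor or more, while 2 of them had no SMC1 peak at either anchor. In the CTCF-labelled list, all 41422 had an SMC1 peak at 1 anchor or more, and 1688 had no CTCF peak at either. The authors' loop caller, MAPS, required a peak of the same experiment at 1 anchor at least, and these counts were met in full only when the lists were read with the peaks of the other target. A peak of the labelled target stood at both anchors of 63.8% and 45.6% of the loops, and a peak of the other target at both anchors of 54.8% and 66.7%. The loop totals that the study gives for its targets are also the reverse of the labels, so both the peaks and those totals point to loop lists exchanged between the targets. The labels are kept as names only, and no result below is ascribed to an antibody, whereas the peak lists carry their target in each peak's name.

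The sequences at the feet of the strongest loops show the motif that the orientation results rest on. The stretches printed here are from the loops with the most read pairs and from the first 2 loops with a motif at both anchors in the ranking by read pairs over expected. Capitals mark the 19 bases that matched a CTCF motif learned from the deposited CTCF summits, whose letters found in over 60% of sites read NNNCCANNAGGNGGCNNNN. Each stretch is hg38 reference sequence, 5′ to 3′ on the strand of the motif.
ID3 loop, left foot, chr1:23544857-23544905, forward strand: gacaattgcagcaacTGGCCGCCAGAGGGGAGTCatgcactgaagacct
ID3 loop, right foot, chr1:23637584-23637632, reverse strand: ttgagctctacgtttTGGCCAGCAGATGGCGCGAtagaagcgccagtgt
PLVAP loop, left foot, chr19:17346346-17346394, forward strand: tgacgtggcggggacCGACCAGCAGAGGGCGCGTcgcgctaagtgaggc
PLVAP loop, right foot, chr19:17386149-17386197, reverse strand: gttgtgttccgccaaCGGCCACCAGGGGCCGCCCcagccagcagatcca
Immunoglobulin lambda loop, left foot, chr22:22156877-22156925, forward strand: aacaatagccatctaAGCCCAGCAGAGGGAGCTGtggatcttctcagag
Immunoglobulin lambda loop, right foot, chr22:22195486-22195534, forward strand: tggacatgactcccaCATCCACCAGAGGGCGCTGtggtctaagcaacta
PIK3C2B loop, left foot, chr1:204446539-204446587, forward strand: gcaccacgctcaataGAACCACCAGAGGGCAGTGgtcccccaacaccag
PIK3C2B loop, right foot, chr1:204503317-204503365, reverse strand: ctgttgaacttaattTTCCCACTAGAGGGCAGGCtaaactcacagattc
MMP2 to SLC6A2 loop, left foot, chr16:55465279-55465327, forward strand: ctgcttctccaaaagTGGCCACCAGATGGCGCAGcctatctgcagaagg
MMP2 to SLC6A2 loop, right foot, chr16:55701878-55701926, reverse strand: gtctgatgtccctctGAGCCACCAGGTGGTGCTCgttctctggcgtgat
GPR139 loop, left foot, chr16:19907604-19907652, forward strand: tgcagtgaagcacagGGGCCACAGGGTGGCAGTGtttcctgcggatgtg
GPR139 loop, right foot, chr16:20300627-20300675, reverse strand: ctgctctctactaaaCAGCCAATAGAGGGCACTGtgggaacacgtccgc

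The ID3 loop held the most read pairs in both lists. It joined chr1:23540001-23545000 with chr1:23635001-23640000, 95 kb apart, around ID3, an inhibitor of helix-loop-helix transcription factors that acts in B cells. Its left anchor lay outside coding genes, 11.3 kb from the nearest start of E2F2, a cell cycle transcription factor, and its right anchor 54.2 kb from that of RPL11, a ribosomal protein. The SMC1-labelled list counted 319 read pairs against 28.2 expected, a ratio of 11.3, and the CTCF-labelled list 666 against 43.3, a ratio of 15.4. Both feet had an SMC1 and a CTCF peak, and the motifs faced each other. A neighbouring bin pair of the same 34-pair cluster, 90 kb long, came next in the CTCF-labelled list with 598 read pairs against 38.3 expected.

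The other loops with the most read pairs were shorter. The PLVAP loop, chr19:17345001-17350000 to chr19:17385001-17390000, spanned 40 kb around PLVAP, a protein of endothelial membranes, and counted 265 read pairs against 52.6 expected in the SMC1-labelled list and 521 against 54.3 in the other list. Its right anchor overlapped an exon of CCDC194. The immunoglobulin lambda loop, chr22:22155001-22160000 to chr22:22195001-22200000, also spanned 40 kb, lay among the variable segments (its right anchor held the start of IGLV6-57) and counted 237 read pairs against 75.8 and 397 against 142. It was the one loop of these whose motifs pointed the same way, as its sequences show. Its ratios of 3.13 and 2.79 lay below the medians of distal to distal loops of 35 to 95 kb, 3.33 and 3.28. They lay above the medians of those of 35 kb, 2.66 and 2.73. The PIK3C2B loop, chr1:204445001-204450000 to chr1:204500001-204505000, ran 55 kb from an exon of PIK3C2B, a class II phosphoinositide kinase, to sequence outside coding genes, and counted 571 read pairs against 76.5 in the CTCF-labelled list and 181 against 33.5 in the other.

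Ranked by read pairs over expected, among loops with at least 20 read pairs, the leading loops were longer, from 215 to 395 kb. In the CTCF-labelled list the first joined an intron of MMP2, a matrix metalloproteinase, with an exon of SLC6A2, the noradrenaline transporter, 235 kb away (chr16:55465001-55470000 to chr16:55700001-55705000), with 197 read pairs against 6.02 expected, a ratio of 32.7. The same bins had 85 read pairs and a ratio of 15.6 in the SMC1-labelled list. The GPR139 loop (chr16:19905001-19910000 to chr16:20300001-20305000), around the gene of an orphan receptor, followed with 88 read pairs and a ratio of 30.2. A 385 kb loop around GPR26, another orphan receptor, and CPXM2 (chr10:123580001-123585000 to chr10:123965001-123970000) had 267 read pairs and a ratio of 30.2. All 3 had convergent motifs.

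In the SMC1-labelled list the leader by that ratio was a 215 kb loop from chr5:172475001-172480000, outside coding genes, to an exon of NEURL1B, a ubiquitin ligase gene (chr5:172690001-172695000). It had 81 read pairs against 3.07 expected, a ratio of 26.3, and no peak of either protein at its right anchor. A 230 kb loop around MALT1, a protease that relays antigen receptor signals to NF-kappaB (chr18:58530001-58535000, in an exon of ALPK2, to chr18:58760001-58765000), had 123 read pairs and a ratio of 23.6. A 320 kb loop around TMEM17, a protein of the ciliary base (chr2:62455001-62460000 to chr2:62775001-62780000, in an intron of EHBP1), had 98 read pairs and a ratio of 23.4. Both had SMC1 and CTCF peaks at each anchor, but a motif above the minimum at 1 anchor alone.

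Distal to distal loops were longer than loops with a promoter at an anchor. Their median span was 150 kb (95% rank interval 145 to 150) in the SMC1-labelled list and 145 kb (145 to 145) in the CTCF-labelled list, with quartiles of 95 to 230 and 90 to 230 kb. Promoter to distal loops of the same chromosomes and span limits had medians of 130 and 115 kb, and promoter to promoter loops of 110 and 95 kb. Loops of 300 kb or more made up 13.3% and 14.1% of distal to distal loops, 8.89% and 8.69% of promoter to distal loops, and 6.77% and 4.92% of promoter to promoter loops. The intervals given here and below cover counting error only, and are too narrow in so far as loops share anchors and clusters of neighbouring bins.

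**Figure D1:**
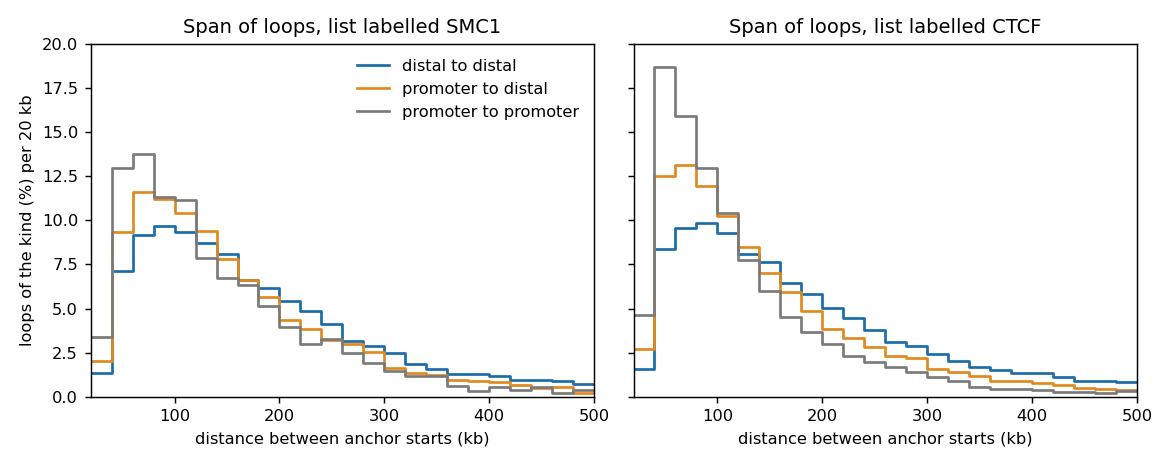
Span of loops over 30 and under 500 kb by kind, as a percentage of the loops of that kind in steps of 20 kb (the first step holds loops of 35 kb alone), for the SMC1-labelled list (left) and the CTCF-labelled list (right). The line of distal to distal loops lies lowest below 100 kb and highest above 200 kb in both lists.

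At the limits of the rule, loops just outside and just inside were as follows. In the SMC1-labelled list, the 166 distal to distal loops of exactly 30 kb, just outside, had a median ratio of read pairs over expected of 2.62, and the 175 of 35 kb, just inside, 2.66. At the upper edge the 23 loops of the last step under 500 kb had 7.34 and the 20 of 500 kb, outside, 6.21. In the CTCF-labelled list these medians were 2.66 (577 loops), 2.73 (645), 7.05 (87) and 7.18 (64). Loops whose nearest coding start lay 1 to 2 kb from an anchor, just inside, had medians of 4.04 (1285 loops) and 4.11 (3408), and loops with a start within 1 kb of an anchor but in neither had 4.16 (1646) and 3.95 (4581).

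The ratio of read pairs to the number MAPS expected from distance, coverage and sequence was higher for distal to distal loops than for loops with promoters. Its median was 4.36 (95% rank interval 4.32 to 4.40) in the SMC1-labelled list and 4.38 (4.36 to 4.41) in the CTCF-labelled list. Promoter to distal loops had 3.95 (3.91 to 3.98) and 3.84 (3.81 to 3.86), and promoter to promoter loops 3.54 (3.49 to 3.62) and 3.58 (3.54 to 3.64). Read pairs themselves ran the other way, with medians of 20 and 21 for distal to distal loops against 22 and 24 for promoter to distal loops. The expected counts differed more, at medians of 4.43 and 4.86 against 5.37 and 6.17.

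The ratio also rose with span, so it was compared within bands of span. For distal to distal loops of 35 to 95 kb its median was 3.33 in the SMC1-labelled list and 3.28 in the CTCF-labelled list, and for those of 300 kb or more it was 6.11 and 6.65. Promoter to distal loops had 3.24 and 3.16 in the shortest band and 5.55 and 5.77 in the longest, and stood below distal to distal loops in all 4 bands of both lists. Over whole chromosomes, distal to distal loops had the higher median on 22 of 22 autosomes in each list. No listed loop had under 12 read pairs, and none of these spans had a ratio under 2.00. The median count of distal to distal loops went from 26 and 27 in the shortest band to 16 and 18 in the longest. Their median expected count went from 7.72 and 8.40 to 2.73 and 2.88. The minimum of 12 read pairs so demanded a higher ratio of the longest loops. Promoter to distal loops had higher median expected counts in every band, at 3.07 and 3.30 in the longest. The same minimum thus asked less of their ratio, and how much of the contrast between kinds follows from it was not tested.

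**Figure D2:**
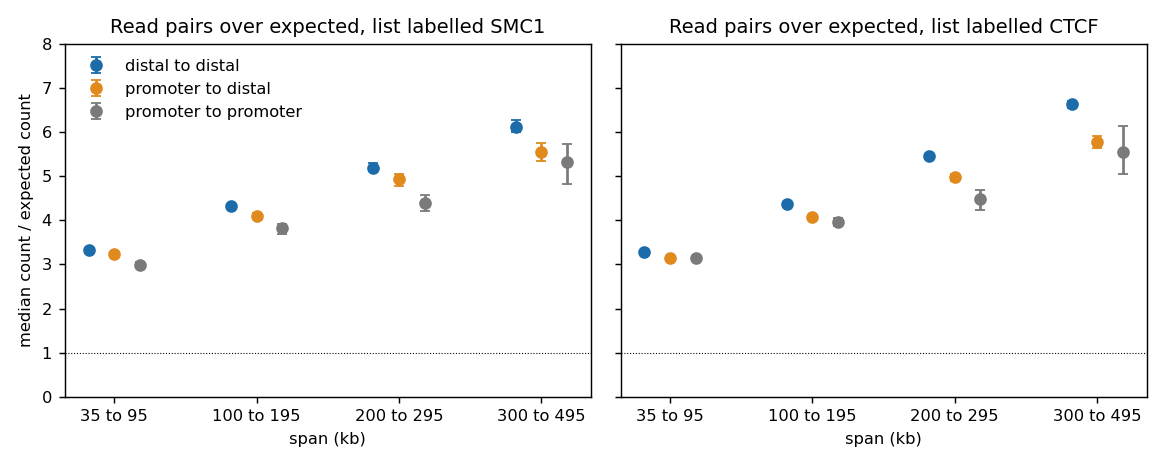
Median ratio of read pairs to expected read pairs by band of span for distal to distal, promoter to distal and promoter to promoter loops, in the SMC1-labelled list (left) and the CTCF-labelled list (right). Bars are 95% rank intervals of the median and the dotted line marks a ratio of 1; distal to distal loops have the highest point in every band, from 3.33 to 6.11 on the left and from 3.28 to 6.65 on the right.

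Sites bound by cohesin and CTCF together were the commonest anchors. SMC1 and CTCF peaks stood at both anchors of 6635 loops (50.8%, 95% Wilson interval 49.9 to 51.6) in the SMC1-labelled list and of 17870 loops (43.1%, 42.7 to 43.6) in the CTCF-labelled list. The second class paired such an anchor with one without any peak, at 4203 loops (32.2%) and 12152 loops (29.3%). The third paired it with an anchor that had an SMC1 peak and no CTCF peak, at 1695 (13.0%) and 8648 loops (20.9%). With 1 bin pair for each cluster of neighbouring pairs, the first class rose to 79.3% and 76.8% and loops with an anchor without a peak made up 11.3% and 5.87%. A pair without a peak at either anchor cannot occur under the caller's rule.

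Over all bin pairs, fewer distal to distal than promoter loops had both peaks at both anchors and more had an anchor without a peak. Promoter to distal loops had both peaks at both anchors in 55.4% and 47.5% of cases, and promoter to promoter loops in 67.1% and 56.4%. The share was higher for distal to distal than for promoter to distal loops on 4 of 22 chromosomes in the SMC1-labelled list and on 0 of 22 in the CTCF-labelled list. A peak at 1 anchor and none at the other, with both proteins at the first, was seen in 26% and 22.5% of promoter to distal loops and in 15.2% and 12.8% of promoter to promoter loops. With 1 bin pair per cluster, both peaks at both anchors were found in 79.3% (78.0 to 80.6) and 76.8% (75.9 to 77.6) of distal to distal loops. Promoter to distal loops had 80.1% (78.4 to 81.7) and 76.4% (75.3 to 77.5), with overlapping intervals, so that contrast did not hold. Promoter to promoter loops had 86.4% (83.4 to 89.0) and 75.4% (73.1 to 77.6), higher than distal to distal loops in the SMC1-labelled list alone. An anchor without a peak was then found in 11.3% (10.3 to 12.4) and 5.87% (5.43 to 6.34) of distal to distal loops. For promoter to distal loops this was 10% (8.84 to 11.3) and 4.55% (4.05 to 5.12), and for promoter to promoter loops 3.83% (2.54 to 5.72) and 1.66% (1.11 to 2.48).

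**Figure D3:**
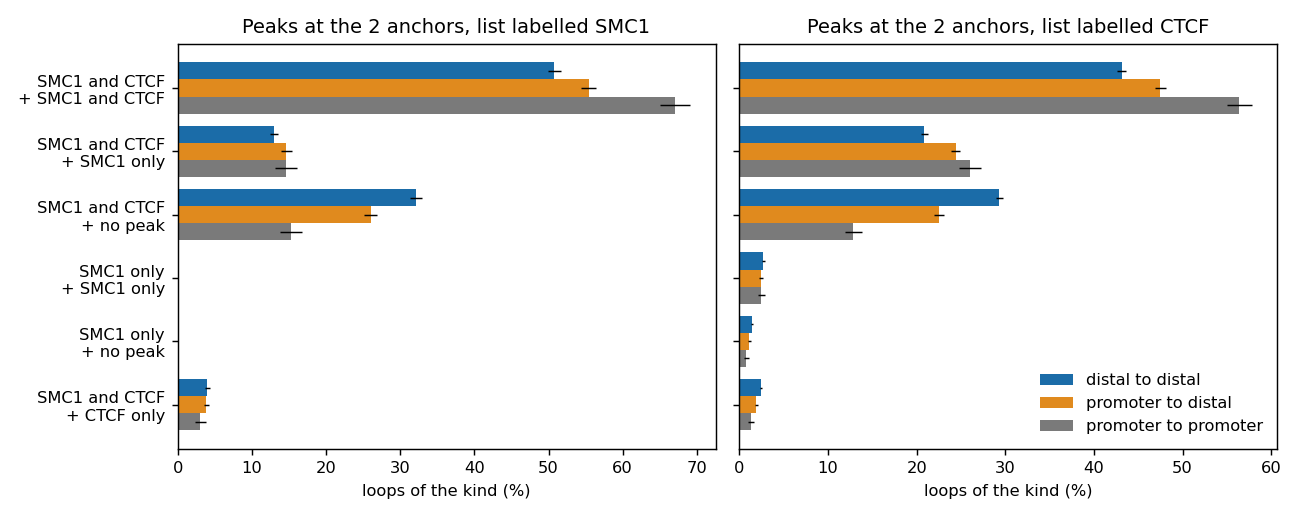
Share of loops by the peaks that overlap their anchors, for each kind of loop, in the SMC1-labelled list (left) and the CTCF-labelled list (right); bars carry 95% Wilson intervals and each row names the peaks at one anchor and at the other. Distal to distal loops lead in the row with no peak at one anchor (32.2% and 29.3%).

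Loops without any CTCF peak were a small class. The CTCF-labelled list held 1113 distal to distal loops (2.69%) with an SMC1 peak and no CTCF peak at both anchors and 575 (1.39%) with an SMC1 peak at one anchor and no peak at the other. The SMC1-labelled list held none of either class, which the caller's rule would fix if that list was called with CTCF peaks, so the lists are not compared on it. The 1113 loops were shorter, with a median span of 80 kb, and had a median ratio of 2.95 (2.91 to 3.02), against 165 kb and 4.78 for loops with both peaks at both anchors in that list. Within the band of 35 to 95 kb the medians were 2.75 (693 loops) against 3.37 (4283 loops), and from 100 to under 200 kb 3.24 (313) against 4.55 (6329). MAPS fits its expectation separately for pairs with a peak at both anchors and at one, and which peaks it read is tied to the label question above.

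A larger share of the loops with SMC1 peaks alone lay inside a single gene. Both anchors were in or touched the same coding gene in 400 of the 1113 loops (35.9%, 33.2 to 38.8), and in 147 of the 575 with an SMC1 peak at one anchor and no peak at the other (25.6%, 22.2 to 29.3), against 1938 of 17870 (10.8%, 10.4 to 11.3) for loops with both peaks at both anchors, which were also longer. The 2 of these loops with the most read pairs joined introns of POU2AF1, a coactivator of B cell transcription. They ran from chr11:111365001-111370000 and from chr11:111370001-111375000 to chr11:111415001-111420000, over 50 and 45 kb, with 237 read pairs against 68.7 expected and 185 against 62.1. The shared right anchor held 3 SMC1 peaks, the strongest with a -log10 q-value of 115, and the start of a noncoding RNA. Neither pair of bins was in the SMC1-labelled list. Every distal to distal loop there had a CTCF peak at 1 anchor or more, so the lists are not compared on these loops.

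The loops rested on 13991 distinct anchors in the SMC1-labelled list and 36706 in the CTCF-labelled list. Of these, 8156 (58.3%) and 18438 (50.2%) had SMC1 and CTCF peaks, 1517 (10.8%) and 7021 (19.1%) SMC1 peaks alone, 458 (3.27%) and 812 (2.21%) CTCF peaks alone, and 3860 (27.6%) and 10435 (28.4%) no peak. Among all 509717 distal 5 kb bins of the autosomes with complete sequence, 7.12% had both peaks, 6.81% SMC1 alone, 1.95% CTCF alone and 84.1% neither. Seen from the bins, 22.5% of those with both peaks were an anchor in the SMC1-labelled list and 50.8% in the CTCF-labelled list. Of bins with SMC1 alone these shares were 4.37% and 20.2%, of bins with CTCF alone 4.61% and 8.16%, and of bins without a peak 0.90% and 2.43%. The caller listed only pairs with a peak at 1 anchor or more, so its rule itself favours bins with peaks.

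Anchors lay within genes more often than distal bins at large did. In the SMC1-labelled list, 56.5% overlapped a coding gene and 31.3% a coding exon, and in the CTCF-labelled list 57.3% and 28%, against 43.8% and 15.6% of all distal bins. The distal bins with both peaks, whether or not they were an anchor, stood at 54.1% and 25.1%. A lncRNA started within 1 kb of 8.56% and 7.66% of anchors, against 4.83% of all distal bins and 8.52% of those with both peaks. The median distance from an anchor's middle to the nearest coding start was 19.5 kb (quartiles 9.24 to 41.4) and 24.5 kb (10.8 to 54.6). Median GC content was 45.7% and 43.5% at the anchors, against 39.5% in all distal bins and 43.1% in those with both peaks. It was 50.8% and 49.1% at promoter anchors of loops of the same spans.

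Most anchors had 1 partner, and anchors with many partners had strong peaks. Partners were counted as distinct 5 kb bins, so neighbouring bins of the same cluster count separately. A single partner was found for 68.8% and 56.9% of anchors, and 5 or more for 975 (6.97%) and 4045 (11.0%). Of the anchors with 5 or more partners, 974 and 3759 had both peaks. Among anchors with both peaks and 1 partner, the median -log10 q-value of the strongest CTCF peak was 69.5 and 41.2, and among those with 10 or more partners 262 and 180. The SMC1 peak at the same anchors rose from 64.5 and 35.8 to 220 and 178. The share with a CTCF motif in the peak rose from 57.8% and 50.6% to 88.7% and 81.6%. Whether read coverage at the anchors moved with the number of partners was not tested.

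The anchor with the most partners was the same in both lists. Bin chr19:15555001-15560000, outside coding genes and 32.2 kb from the nearest start of CYP4F22, a fatty acid hydroxylase, was the right end of 48 loops in the SMC1-labelled list and of 39 in the CTCF-labelled list, and the left end of none. The loops spanned 70 to 465 kb and 85 to 465 kb, and carried 1430 and 1121 read pairs. They are pairs of 5 kb bins and can be neighbours in a cluster. Its motif, at 17.2 bits, was on the reverse strand, so it pointed into all of them. A bin in an intron of the METTL8 gene, an RNA methyltransferase, chr2:171415001-171420000, was likewise the right end of 39 loops in the CTCF-labelled list with a reverse motif of 16.2 bits. The mirror case was chr4:86920001-86925000, the left end of 33 loops in the SMC1-labelled list, with a forward motif of 16.8 bits.

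Motif orientation could be read at both anchors of a minority of loops. Within 50 bp of the strongest CTCF summit of each anchor, a motif of at least 12 bits stood at both ends of 302 loops in the SMC1-labelled list and 612 in the CTCF-labelled list. It was convergent in 226 (74.8%, 69.6 to 79.4) and 427 (69.8%, 66.0 to 73.3). Hits lay a median of 85 bp from the summits of strong peaks, so the window was widened, after this was seen, to the whole strongest CTCF peak. That gave 3485 and 8230 loops, of which 73.7% (72.3 to 75.2) and 72.9% (71.9 to 73.8) were convergent, 24.9% and 26.5% had motifs in tandem, and 47 (1.35%) and 56 (0.680%) were divergent.

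Convergence was commoner in distal to distal loops than in promoter loops, and commoner in longer than in shorter distal to distal loops. With the wider window, 66.9% (64.9 to 68.9) and 67.3% (65.9 to 68.7) of promoter to distal loops and 60.9% and 61.5% of promoter to promoter loops were convergent. The share was higher for distal to distal than for promoter to distal loops on 15 and 16 of 22 chromosomes. By span it went from 69.8% at 35 to 95 kb to 76.6% at 300 kb or more in the SMC1-labelled list, and from 70.6% to 79.4% in the CTCF-labelled list. Taken singly, anchors that were only ever left ends had a forward motif in 2290 of 2549 cases (89.8%) and 4489 of 4940 (90.9%), and those that were only right ends in 11.3% of 2600 and 9.03% of 4915. Anchors that served as both left and right ends were near balance, at 202 of 419 (48.2%) and 771 of 1525 (50.6%). With motifs within 50 bp of the summits, 65.2% (58.2 to 71.7) of promoter to distal loops in the SMC1-labelled list were convergent. Distal to distal loops there had 74.8% (69.6 to 79.4), so the intervals overlapped. The contrast in convergence with promoter loops was not tested with 1 bin pair per cluster.

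Convergent loops had more read pairs over expected than tandem loops. In the CTCF-labelled list their medians were 6.18 and 3.74, and in the SMC1-labelled list 4.62 and 3.6. The order held in each band of span, from 4.29 against 2.87 at 35 to 95 kb to 7.74 against 5.03 at 300 kb or more in the CTCF-labelled list, and from 3.32 against 2.83 to 5.99 against 4.91 in the SMC1-labelled list. It also held on 22 and 20 of 22 chromosomes. With motifs within 50 bp of the summits the medians were 7.03 against 3.59 in the CTCF-labelled list and 5.04 against 3.57 in the SMC1-labelled list.

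**Figure D4:**
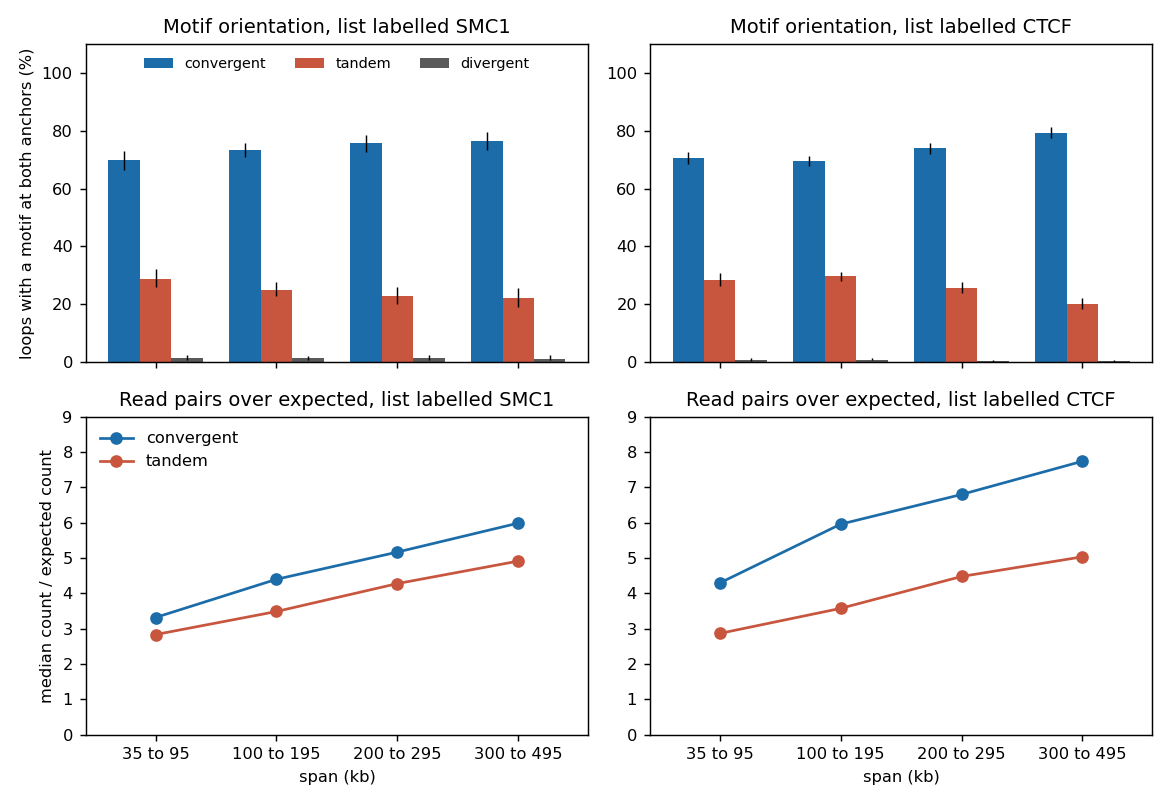
Orientation of the CTCF motifs at the anchors of distal to distal loops with a motif in the strongest CTCF peak of both anchors, by band of span. The upper plots give the share of convergent, tandem and divergent loops with 95% Wilson intervals, and the lower ones the median ratio of read pairs to expected, where convergent loops stand above tandem loops in every band (divergent loops were at most 26 a band and are not drawn there).

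What lay between the anchors varied with span. At least 1 whole coding gene lay inside 7677 loops (58.8%, 57.9 to 59.6) in the SMC1-labelled list and 19335 (46.7%, 46.2 to 47.2) in the CTCF-labelled list. The share rose from 40.5% and 28.6% at 35 to 95 kb to 78.3% and 69.5% at 300 kb or more. A further 30.7% and 35.1% held no whole gene but a coding start, so that the gene ran past an anchor or through it. In 5.53% and 8.78% no coding gene lay anywhere from anchor to anchor. Loops around whole genes had median ratios of 4.51 and 4.97, and those without any coding gene, which were shorter at medians of 95 and 100 kb, 3.79 and 3.43.

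Per megabase, distal to distal loops enclosed fewer genes than promoter loops. They held 7.87 and 5.54 whole coding genes per Mb between their anchors, against 11.6 and 8.13 for promoter to distal loops and 21.3 and 15.8 for promoter to promoter loops. The kinds are set by coding starts at the anchors, so the rule itself favours this order. No whole gene lay inside 41.2% and 53.3% of distal to distal loops, a single one inside 31.1% and 26.9%, and 5 or more inside 6.45% and 3.47%. The most crowded loop of the SMC1-labelled list spanned 435 kb from chr11:62425001-62430000 to an intron of SLC3A2, an amino acid transporter subunit (chr11:62860001-62865000), with 31 coding genes that included AHNAK, EEF1G and MTA2, and had 12 read pairs against 2.54 expected. That of the CTCF-labelled list ran 455 kb from an intron of OLFM2 (chr19:9930001-9935000) to chr19:10385001-10390000, around 21 genes that included DNMT1, the maintenance DNA methyltransferase, and ICAM1, an adhesion molecule of leukocytes. It had 25 read pairs against 3.97 and convergent motifs.

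Of 19111 autosomal coding genes, 22.3% lay whole inside at least 1 distal to distal loop of the SMC1-labelled list and 39.7% of the CTCF-labelled list. Among 24 autosomal genes of B cell identity and signalling, 11 (45.8%, 27.9 to 64.9) and 13 (54.2%, 35.1 to 72.1) did, and among 25 transcription factors of lineages outside the blood 9 (36.0%, 20.2 to 55.5) and 14 (56.0%, 37.1 to 73.3). Cytosolic ribosomal protein genes, chosen by symbol and so with related genes such as RPL3L and RPL7L1, were inside in 13 (16.2%, 9.75 to 25.8) and 20 (25%, 16.8 to 35.5) of 80 cases. Genes differ in length, with medians of 60.5, 11.0 and 5.55 kb for the lists and 27.9 kb for all genes, and in how many loops surround them, so the shares are read beside the background only.

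Several B cell genes sat in loops of 100 kb or less. In the CTCF-labelled list the shortest loop around CD79B, a signalling chain of the B cell receptor, spanned 45 kb with 35 read pairs and a ratio of 2.25, and that around its partner CD79A 60 kb with 42 read pairs and a ratio of 3.35. In the SMC1-labelled list their shortest loops spanned 105 kb (70 read pairs, ratio 7.04) and 70 kb (29 read pairs, ratio 4.99). BLK, a Src family kinase of B cells, lay in the same 85 kb loop in both lists, with 36 and 59 read pairs. SPIB, an Ets factor, lay in the same 90 kb loop with 59 and 53. IRF8, an interferon regulatory factor needed by B and myeloid cells, was inside 30 and 37 loops, the shortest of 115 and 95 kb. MS4A1, which encodes CD20, was inside 1 loop of 120 kb in the SMC1-labelled list, with a ratio of 8.35, and inside 17 loops in the CTCF-labelled list, the shortest of 100 kb with a ratio of 3.92. CR2, the complement and Epstein-Barr virus receptor, was inside 3 loops in the CTCF-labelled list, the shortest of 85 kb, and none in the other list. PAX5, BACH2, BCL6, IRF4, SPI1, POU2AF1, POU2F2, FOXO1, BCL11A and SYK were whole inside no distal to distal loop of either list.

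For the 9 and 14 transcription factors of other lineages the shortest loop around each had a median span of 185 and 350 kb, against 120 and 100 kb for the B cell genes and 175 and 170 kb for all genes inside a loop. The spans overlapped, from 120 to 475 kb for these factors and from 70 to 415 kb for the B cell genes in the SMC1-labelled list, and the difference was not tested. PDX1, a pancreatic factor, lay in loops of 120 and 80 kb, and CDX2, an intestinal one, in loops of 150 and 145 kb. NEUROG2, a proneural factor, was inside the same 160 kb loop in both lists, with tandem motifs, 15 and 52 read pairs and ratios of 3.11 and 5.70. OLIG2, of oligodendrocytes, lay in loops of 185 and 110 kb. The eye factor PAX6 lay in a loop of 315 kb with convergent motifs in the CTCF-labelled list, and the liver factor HNF4A in one of 245 kb in the SMC1-labelled list.

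For the ribosomal protein genes that were inside, that median was 160 and 150 kb. RPS6 lay in the same 85 kb loop in both lists, with 15 and 18 read pairs. In the SMC1-labelled list, RPL13A lay in a loop of 90 kb, RPS19 of 100 kb and RPL28 of 120 kb, and in the CTCF-labelled list RPS20 had the shortest loop, of 35 kb with 28 read pairs.

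Promoter loops were often nested in distal to distal loops. At least 1 loop with a promoter anchor lay wholly within 49.8% and 58.0% of them, and at least 1 crossed a single end of 41.2% and 55.8%. Counted as pairs, nested outnumbered crossing promoter loops by 1.49 and 1.54 to 1. The ratio went from 0.675 and 0.654 at 35 to 95 kb to 3.47 and 3.02 at 300 kb or more. In the CTCF-labelled list it was 1.83 for loops with SMC1 and CTCF peaks at both anchors and 0.484 for the shorter loops with SMC1 peaks alone at both. A longer loop has more room to hold a promoter loop, so span itself favours nesting. No expected ratio was computed.

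Nearly all loops of the SMC1-labelled list were found again in the other list. With each anchor extended by 15 kb, 12585 (96.3%) had a match among all loops of the CTCF-labelled list, against 22565 (54.5%) the other way. These shares count every bin pair. With 1 bin pair per cluster, 3301 of 3512 (94.0%) had a match, against 3099 of 10262 (30.2%) the other way. The same bins were listed in both for 9837 loops, which were 75.3% and 23.7% of the lists. At these the median was 21 read pairs in the SMC1-labelled list and 38 in the CTCF-labelled list, the median of their ratio 1.73 (quartiles 1.18 to 2.60), and 82.8% had more in the latter. That ratio was 2.12 where both anchors had SMC1 and CTCF peaks, 1.65 where 1 of them had SMC1 alone and 1.21 where 1 had no peak. It is not scaled for the depth of the libraries. Read pairs over expected had a Pearson correlation of 0.591 between the lists on the log2 scale across the 9837 loops, given as a description since both are from the same cell line and share the distance and sequence terms of the expectation.

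Loops of the CTCF-labelled list without a match differed in content. The 18857 unmatched loops enclosed a whole coding gene in 38.7% of cases (38.0 to 39.4), against 53.4% (52.7 to 54.0) of the matched ones, at the same median span of 145 kb. Their median ratio was 4.03 against 4.73, and 48.2% against 38.9% had SMC1 and CTCF peaks at both anchors. SMC1 peaks alone at both anchors were seen in 4.26% against 1.37%. Of those with a motif at both ends, 71.9% and 73.7% were convergent. The unmatched loops were also less clustered, with 84.3% in clusters of neighbouring pairs against 98.9%. Summits of clusters or lone pairs were 7163 of the unmatched and 3099 of the matched loops. In the whole list such pairs had both peaks at both anchors in 76.8% of cases, against 32.1% of the other pairs. Whether these contrasts hold with 1 bin pair per cluster was not tested.

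Most loops were neighbours in clusters. MAPS groups adjacent bin pairs, and 1 pair for each cluster, its summit, or a lone pair was 26.9% and 24.8% of the distal to distal loops (3512 and 10262). These had SMC1 and CTCF peaks at both anchors in 79.3% and 76.8% of cases, against 40.3% and 32.1% of the other pairs, and an anchor without a peak in 11.3% and 5.87%, against 39.9% and 38.9%. Their median ratio was 5.15 and 5.44 against 4.13 and 4.11.

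The loops were denser on chromosomes with more coding genes. Their density went from 1.64 per Mb on chromosome 13 to 15.4 on chromosome 19 in the SMC1-labelled list, and from 7.58 on chromosome 13 to 24.3 on chromosome 17 in the CTCF-labelled list. Across the 22 autosomes it had a Pearson correlation with coding genes per Mb of 0.938 and 0.768, as a description, since chromosomes share libraries and base composition. Their share among loops of these spans ran the other way, from 39.3% and 35.9% on chromosome 19 to 73.9% and 74.8% on chromosome 13, which the rule itself brings about, since it leaves out anchors near coding starts. The median ratio varied from 3.89 to 5.22 and from 4.09 to 4.67 over chromosomes.

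**Figure D5:**
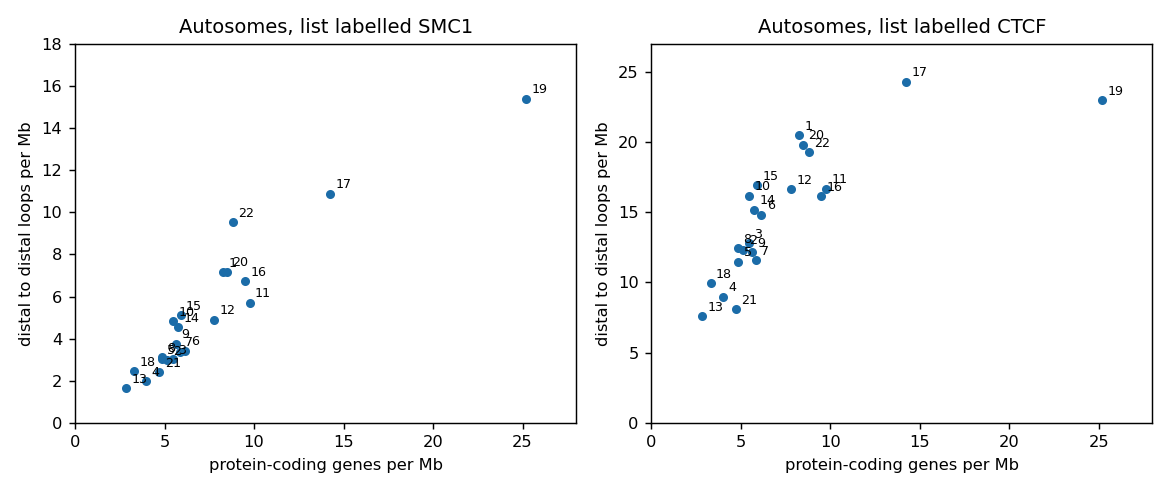
Distal to distal loops per Mb against protein-coding genes per Mb for the 22 autosomes, numbered, in the SMC1-labelled list (left) and the CTCF-labelled list (right, with its own vertical scale). Chromosome 13 has the fewest genes and loops per Mb and chromosomes 17 and 19 the most.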

How the data were processed

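HiChIP was done on HG00731 cells with antibodies to SMC1 (formaldehyde and EGS) and CTCF (formaldehyde), with 2 biological replicates each. The authors mapped reads to hg38 with BWA-MEM, removed reads with low mapping quality and duplicates, called peaks with MACS3 3.0.1 without input, and called loops with MAPS on pooled replicates. The loop tables the authors deposited hold, for every listed pair of 5 kb bins, the count of read pairs (none under 12) and the expected count, a signal fitted by MAPS. The deposited peak tables hold fold enrichment and a q-value on the -log10 scale. Pooling removes the spread between replicates, so no test was run. The sequencing totals that the study gives were not used here, and the only depth given is the read pairs of the listed loops.

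Anchors were compared with GENCODE 44 and with 94628 SMC1 and 61417 CTCF peaks on the autosomes (an overlap of 1 bp). The ratio was the count over the expected count. A 19 bp CTCF motif was learned by expectation maximisation from 3000 CTCF summits on odd-numbered autosomes. A hit needed 12 bits, a score reached by 0.756% of windows 1 kb from the summits and by 10.4% of summit windows on even-numbered autosomes. Shares have 95% Wilson intervals and medians rank intervals. Named loops were the 3 with the most read pairs, the 3 with the highest ratio at 20 read pairs or more, the one with the most genes, the 2 with SMC1 peaks alone and the most read pairs, and the 2 anchors with the most partners, per list, and of each gene list the 6 genes with the shortest loops, of which some are not reported here. These members and lists were chosen with earlier results of these data known. The steps that compute overlaps, matches and motif strands were tested on simulated data. Python 3.11.15, pandas 2.3.3, SciPy 1.17.1 and pysam 0.24.0 were used.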

Additional observations from a re-analysis of the deposited data

How the results depend on the processing

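No paired analysis was possible because each list pools both replicates, which also leaves no replicate to leave out and no test. Of the alternative values, 50 moved (a share or median out of its counting interval, a number of loops by over 1.5 times) and 32 did not, and the cause was not tested. The contrast with promoter loops was recomputed with 1 bin pair per cluster only, where median ratios were 4.57 and 4.57 and median spans 135 and 130 kb for promoter to distal loops. Values are for the SMC1-labelled and then the CTCF-labelled list. With starts of all annotated transcripts, 7167 and 25136 loops were left, the median ratio was 4.51 and 4.48, a whole gene lay inside 57.8% and 44.9%, and the median span was 155 and 150 kb. With promoters extended to 5 kb these were 4.51 and 4.45, 55.9% and 44.1%, and 160 and 155 kb, and both peaks stood at both anchors of 43.7% in the CTCF-labelled list, where starts inside the anchor alone gave a ratio of 4.34. With 1 bin pair per cluster, 3512 and 10262 loops were left, with both peaks at both anchors in 79.3% and 76.8%, ratios of 5.15 and 5.44, convergent motifs in 85.5% and 82.7%, a span of 170 kb in each, and a gene inside 56.8% in the SMC1-labelled list. With at least 20 read pairs, 6600 and 23580 were left, with both peaks in 60.3% and 53.8%, ratios of 4.22 and 4.44, spans of 120 and 125 kb, and a gene inside 44.6% in the CTCF-labelled list. Both peaks at both anchors fell to 43.1% and 35.6% for peaks with a -log10 q-value of 10 or more, 41.6% and 34.9% for summits inside the anchor, and 49.0% and 41.7% for overlapping peaks. A coding start in place of a whole gene lay inside 89.5% and 81.8%. Identical bins were listed in the other list for 75.3% and 23.7%, and 94.3% and 50.7% matched a distal to distal loop. With the lists exchanged, a peak of the target stood at both anchors of 54.8% and 66.7%. The motif window of the whole peak and that contrast by cluster were chosen after seeing the data.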
